A study of Homo sapiens with 8 samples.

Results

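The 8 genes described here encode parts of the dystrophin-glycoprotein complex: DMD, UTRN, DAG1, SGCA, SGCB, SGCD, SNTB1 and DTNA. They were taken by symbol from the 60234 rows of the deposited expression table, and each symbol stood on 1 row. The cells were Rh41, a human line established from an alveolar rhabdomyosarcoma, a childhood tumour with features of immature skeletal muscle, and they carry the PAX3-FOXO1 fusion. The labels give 4 control libraries (CTR) and 4 libraries with a knockdown of G9a (siG9a), numbered 1 to 4 in each group, and the design text calls them biological replicates. What the control cells received is not given, and the series title writes the knockdown as shG9a where the sample labels write siG9a. All 8 libraries come from this single line, so the values describe Rh41 and not rhabdomyosarcoma in general. G9a, encoded by EHMT2, is a histone methyltransferase associated with gene repression.

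The dystrophin-glycoprotein complex joins the actin cytoskeleton of a muscle fibre to the extracellular matrix. Dystrophin binds actin on the inner face of the membrane and β-dystroglycan at its C-terminal part, and α-dystroglycan carries long sugar chains that bind laminin outside the cell. Sarcoglycans stabilise dystroglycan in the membrane, while syntrophins and dystrobrevins hold signalling proteins such as neuronal nitric oxide synthase. Loss of dystrophin, of a sarcoglycan or of dystroglycan glycosylation causes muscular dystrophy.

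Library totals ran from 1458825 to 1938665 reads assigned to genes, recovered from the deposited CPM values, in which a library's counts are scaled to a common total. At this depth 1 read was worth 0.516 to 0.685 CPM, and 3 reads, the floor used here, 1.55 to 2.06 CPM. EHMT2 averaged 75.3 ± 15.0 CPM in control libraries and 36.6 ± 16.2 CPM with siG9a (mean ± SD, n = 4 in both) and was lower in siG9a in 4 of 4 pairs of libraries with the same number, although the groups overlapped. Its log2 change was −1.10, and limma's adjusted p (described below) was 0.000472 with the replicate number in the model and 0.191 without it. Muscle markers were present: of 13 markers of skeletal muscle and rhabdomyosarcoma, 10 reached a mean of 1 CPM and MYF5 was listed at 0 in every library.

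The replicate 3 libraries of both groups stood apart from the others, which touches several results below. The summed level of the 13 muscle markers was 419 CPM in control replicate 3, where the other control libraries held 2575 to 3157 CPM, and 273 CPM in siG9a replicate 3, where the others held 1056 to 1590 CPM. MYOD1, the myogenic master regulator, was at 95.3 CPM in control replicate 3 and at 817 to 864 CPM in the other controls, and at 128 CPM in siG9a replicate 3 and 608 to 839 CPM in the other siG9a libraries. Of 8 neural markers 4 reached a mean of 1 CPM, and their sum was 9607 and 8936 CPM in the replicate 3 libraries of control and siG9a, against 187 to 2043 and 224 to 2953 CPM in the others. This neural sum rests on the neurofilament subunits NEFM and NEFL, with means of 2925 and 530 CPM over the 8 libraries. INA and TUBB3 had means of 2.0 and 1.9 CPM, and the other neural markers were under 1 CPM. Of 8 fibroblast markers 5 reached a mean of 1 CPM and summed to 143 to 437 CPM in control and 68.5 to 361 CPM in siG9a, lowest in replicate 3 of both groups. Of 8 epithelial markers 4 reached it and summed to 10.3 to 80.5 CPM in control and 24.6 to 45.1 CPM in siG9a, highest in replicate 3 of both groups. Endothelial markers (3 of 4 found in the table, with CDH5 and KDR listed at 0) did not exceed 0.69 CPM in sum. The 5 blood markers summed to 1.22 to 6.85 CPM in control and 6.66 to 21.8 CPM in siG9a. Only 2 of them reached a mean of 1 CPM, CD74 (2.23 CPM in control and 8.37 CPM in siG9a) and HLA-DRA (0.93 and 5.06 CPM). PTPRC, CD68 and CD3E did not. In bulk RNA, fewer cells of a type and less RNA per cell cannot be told apart. The muscle marker sum was also lower in siG9a than in control in 4 of 4 pairs. Its genes did not move alike. MYOD1, PAX7 and CHRND had log2 changes of −0.03, −0.13 and 0.21. For MYOG, CHRNA1, TNNT2, DES, ACTC1, TNNI1 and MYL4 they ran from −0.65 (MYOG) to −3.64 (MYL4). The part of these differences in the results below was not tested beyond giving values without replicate 3.

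By the mean of the 4 control libraries SGCA was the highest of the 8 genes, but in control replicate 3 UTRN, at 105 CPM, was above SGCA, at 81.8 CPM. Reads from this 3′ end assay come from transcript ends, so CPM levels of different genes are compared without a length term. The control means were 307 CPM for SGCA, 92.6 CPM for UTRN, 49.1 CPM for DTNA, 47.0 CPM for SGCB, 39.6 CPM for DAG1, 24.9 CPM for DMD, 4.49 CPM for SGCD and 4.17 CPM for SNTB1. DTNA, SGCB and DAG1, neighbours in this order, lay within 1 SD of each other, as did SGCD and SNTB1. Rh41 cells thus held more reads for utrophin, the autosomal relative of dystrophin, than for dystrophin itself: UTRN was above DMD in each of the 8 libraries. All 8 genes passed the filter of a mean of 1 CPM over the 8 libraries.

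**Figure D1:**
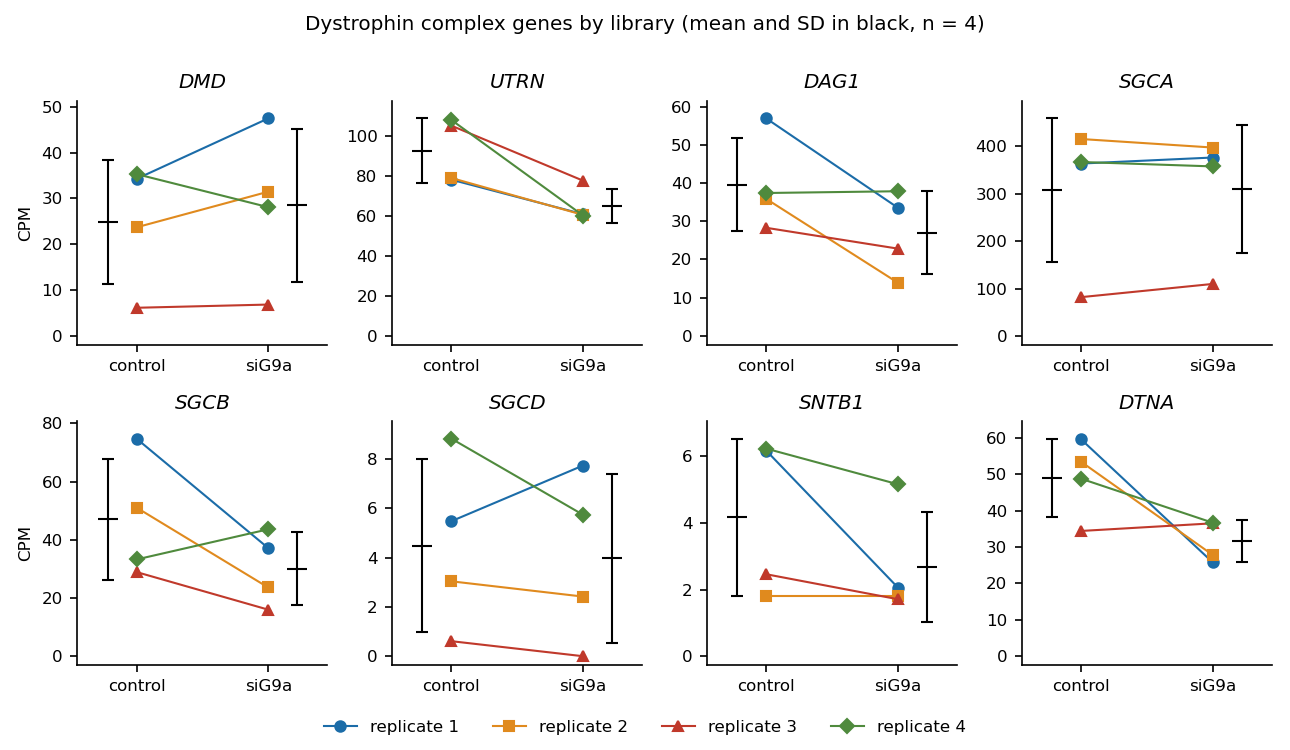
Level of each of the 8 genes (y axis, CPM) in control and siG9a libraries, with a line joining libraries of the same replicate number and the group mean ± SD (n = 4) in black beside the points. Only for UTRN do all 4 siG9a values lie below all 4 control values, and the red triangles of replicate 3 lie at the bottom of the DMD, SGCA and SGCD panels.

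Promoter sequences are shown for 3 genes with a negative log2 change (UTRN, SGCB and DAG1) and for DMD, whose change was positive but not called. RefSeq windows on GRCh38.p14 were used for 6 of the 8 genes, all but SGCA and SNTB1, with several starts for some. The 250 bases before a start are printed 5′ to 3′ on the gene's strand. Capitals mark CANNTG, the E-box letters bound by myogenic factors such as MYOD1, and GGGCGG or its reverse complement CCGCCC, a GC box. The motifs were searched on both strands. The DMD start chosen is that of the full-length muscle transcript.
UTRN, chr6:144285085-144285334, plus strand: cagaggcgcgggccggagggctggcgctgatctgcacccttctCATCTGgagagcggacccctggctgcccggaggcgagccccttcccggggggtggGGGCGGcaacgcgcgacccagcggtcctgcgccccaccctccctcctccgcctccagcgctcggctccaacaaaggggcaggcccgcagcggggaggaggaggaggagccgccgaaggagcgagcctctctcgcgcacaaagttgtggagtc
SGCB, chr4:52038300-52038549, minus strand: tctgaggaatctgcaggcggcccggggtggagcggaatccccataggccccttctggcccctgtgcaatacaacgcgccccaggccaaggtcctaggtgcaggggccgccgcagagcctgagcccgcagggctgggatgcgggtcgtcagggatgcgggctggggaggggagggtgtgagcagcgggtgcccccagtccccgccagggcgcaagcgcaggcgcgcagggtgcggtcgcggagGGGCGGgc
DAG1, chr3:49469882-49470131, plus strand: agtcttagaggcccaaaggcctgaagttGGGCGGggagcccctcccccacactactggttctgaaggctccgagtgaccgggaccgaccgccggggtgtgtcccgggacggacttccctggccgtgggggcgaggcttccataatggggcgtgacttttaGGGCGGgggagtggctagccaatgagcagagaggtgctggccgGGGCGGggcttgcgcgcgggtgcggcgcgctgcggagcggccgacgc
DMD, chrX:33211550-33211799, minus strand: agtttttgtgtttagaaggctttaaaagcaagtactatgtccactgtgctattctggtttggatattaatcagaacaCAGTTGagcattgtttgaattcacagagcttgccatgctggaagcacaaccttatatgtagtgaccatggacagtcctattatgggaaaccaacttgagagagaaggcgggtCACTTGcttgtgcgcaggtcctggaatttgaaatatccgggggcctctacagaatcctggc

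The printed windows before UTRN, SGCB and DAG1 had a GC content of 73.2%, 73.6% and 70%, and the DMD window was at 44.0%, where the median of all 35116 RefSeq windows was 58.0% with quartiles of 46.4% and 68.0%. A GC box was found once before UTRN, once before SGCB and 3 times before DAG1, and not before DMD. It occurs in 42.6% of all windows of this length. CANNTG was found once before UTRN and 2 times before DMD, and it occurs in 61.8% of all windows. The windows that are not printed go both ways. A second DAG1 start has a window with a GC content of 73.6% and 3 GC boxes. The other DMD windows are at 34.8% to 44.8% with no GC box. Against this difference, a second UTRN start has a window with a GC content of 45.6% and no GC box. SGCD, also with a negative log2 change, is at 53.2% with no GC box. The 7 windows of DTNA are at 31.2% to 49.6%, 1 of them with a GC box. These matches describe letters in the windows and are not evidence of binding.

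The comparison of siG9a with control asked how the knockdown changed each gene. UTRN was lower in siG9a in 4 of 4 pairs, where 15.3% of all genes were, and DAG1, SGCB and DTNA were lower in 3 of 4, with log2 changes from −0.50 to −0.63. DMD and SGCA had log2 changes of 0.17 and 0.09. SGCD and SNTB1 were also lower in 3 of 4 pairs, but were measured from 17 reads or fewer a library. The share of all genes lower in 3 of 4 pairs was not computed. Neither limma fit called any of the 8. The test was limma on log2(CPM + 1) over 15092 genes with Benjamini-Hochberg adjustment, and a gene was called at an adjusted p under 0.05. Without the replicate number in the model limma called 0 of the 8 genes, and 0% of all genes tested. At an unadjusted p under 0.05 it found 2 of the 8 (UTRN and DTNA), where 12.5% of all genes tested did so. With the replicate number as a block (the blocked fit, against the unblocked fit without it) limma called 0 of the 8 genes, where 11.4% of all genes were called, and 4 had an unadjusted p under 0.05 (UTRN, DTNA, SGCB and DAG1), where 25.5% of all genes did so. edgeR with the block called 1 of the 8 (UTRN), with 11.3% of all genes called, and DESeq2 with the block called 0, with 6.2% of all genes called. The median log2 change of the 8 genes was −0.48, beside 0.01 over all genes tested, and 6 of the 8 changes were negative, beside 48.9% of all genes. The median of the 8 was also negative in each pair taken alone, from −0.55 in replicate 1 to −0.28 in replicate 4.

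**Figure D2:**
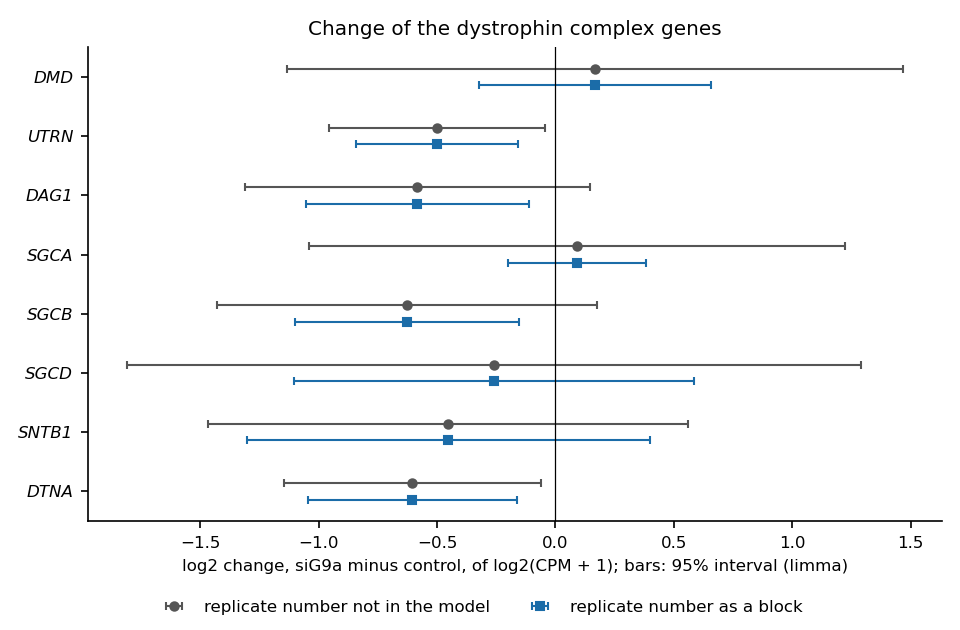
Log2 change of each gene (x axis, siG9a minus control, on the log2(CPM + 1) scale) with its 95% interval from limma, without the replicate number in the model (grey circles) and with it as a block (blue squares). The intervals of UTRN, DTNA, SGCB and DAG1 with the block lie below 0 before adjustment over all genes, and those of DMD, SGCA, SGCD and SNTB1 include 0.

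UTRN (ENSG00000152818, chr6:144285701-144853034 in GENCODE release 29, GRCh38) encodes utrophin, which can take the place of dystrophin in the complex and is found at the neuromuscular junction of adult fibres. In control replicates 1 to 4 it measured 78.2, 79.0, 105 and 108.0 CPM, from 114 to 208 reads. In siG9a it measured 60.9, 60.5, 77.7 and 60.2 CPM, from 100 to 136 reads. Each siG9a library was below each control library, the only one of the 8 genes without overlap, where 3.45% of all genes had siG9a values wholly below control. The margin was small, 77.7 CPM in siG9a replicate 3 against 78.2 CPM in control replicate 1. The means were 92.6 ± 16.2 and 64.8 ± 8.56 CPM (mean ± SD, n = 4 in both), in the order control and siG9a, and siG9a was at 77.9%, 76.6%, 73.8% and 55.8% of the control library of the same number. Two-sided, p was 0.0286 in an exact permutation of the group labels, the smallest that 4 against 4 allows. By pairs, an exact sign-flip test gave p = 0.125, the smallest that 4 pairs allow. Of each kind, 1 test was run for each of the 8 genes. The log2 change was −0.50 ± 0.21 (SE), and limma's adjusted p was 0.359 unblocked and 0.0514 blocked. edgeR with the block gave an adjusted p of 0.0457 and DESeq2 with the block 0.119, so the call rested on the tool. Without replicate 3 of both groups the change was −0.52, and limma's adjusted p was 0.242 unblocked and 0.133 blocked.

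DMD (ENSG00000198947, chrX:31097677-33339441, GENCODE release 29) encodes dystrophin, the actin-binding link of the complex. It measured 34.3, 23.7, 6.15 and 35.3 CPM in control and 47.5, 31.5, 6.85 and 28.1 CPM in siG9a, from 10 to 92 reads. Both replicate 3 libraries were far below the others and the groups overlapped throughout. The means were 24.9 ± 13.5 and 28.5 ± 16.7 CPM (mean ± SD, n = 4 in both), with siG9a higher in 3 of 4 pairs. The log2 change was 0.17 with a 95% interval of −1.13 to 1.47 without the block and −0.32 to 0.66 with it, and limma's adjusted p was 0.944 unblocked and 0.721 blocked. The sign turned to −0.37 without control replicate 3 and to −0.16 without siG9a replicate 1. GENCODE lists 20 coding transcripts of DMD with 15 different starts, and 10 of them end within 500 bases of 1 shared 3′ end. Reads at that end do not tell full-length dystrophin from its shorter forms.

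DAG1 (ENSG00000173402, chr3:49468703-49535618, GENCODE release 29) encodes both dystroglycans, the laminin receptor and its membrane anchor. It measured 56.9, 35.9, 28.3 and 37.4 CPM in control and 33.5, 13.9, 22.8 and 37.9 CPM in siG9a. The groups overlapped, and the siG9a value was the smaller in 3 of 4 pairs, with replicate 4 at 101% of control. The means were 39.6 ± 12.2 and 27.0 ± 10.8 CPM (mean ± SD, n = 4 in both), and the log2 change was −0.58 ± 0.34 (SE). Here limma's adjusted p was 0.514 unblocked and 0.10 blocked. Without siG9a replicate 2 the change was −0.31, and without replicate 2 of both groups −0.34.

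The sarcoglycans SGCA, SGCB and SGCD form a subcomplex beside dystroglycan in the muscle membrane, and their levels differed in these cells. SGCA (ENSG00000108823, chr17:50164214-50175931) measured 363, 415, 81.8 and 367 CPM in control and 376, 397, 110 and 357 CPM in siG9a. Outside replicate 3 all 6 libraries lay between 357 and 415 CPM, and both replicate 3 libraries were below that. The means were 307 ± 152 and 310 ± 135 CPM (mean ± SD, n = 4 in both). The log2 change was 0.09, with a 95% interval of −1.04 to 1.22 without the block and −0.20 to 0.38 with it, and limma's adjusted p was 0.966 unblocked and 0.744 blocked. Its sign turned in 6 of the alternatives, among them −0.02 without replicate 3 of both groups and −0.46 without control replicate 3.

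SGCB (ENSG00000163069, chr4:52020706-52038482) measured 74.7, 51.0, 28.9 and 33.2 CPM in control and 37.1, 23.6, 15.99 and 43.6 CPM in siG9a. In the pairs with numbers 1, 2 and 3, siG9a was at 49.7%, 46.2% and 55.3% of control, and in pair 4 at 131%, so pair 4 went the other way and the groups overlapped. Its change on the log2 scale was −0.63 ± 0.37 (SE) and limma's adjusted p was 0.526 unblocked and 0.0795 blocked. Without replicate 4 of both groups it was −0.96, and limma's adjusted p was 0.00856 with the block, a call that rests on leaving out that pair, where 9.23% of all genes were called. Without replicates 1, 2 or 3 of both groups the blocked adjusted p in limma was 0.299, 0.371 and 0.231. Without control replicate 1 alone the change was −0.37, and without siG9a replicate 3 alone it was also −0.37.

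SGCD (ENSG00000170624, chr5:155870344-156767788) was near the floor, at 5.48, 3.04, 0.61 and 8.83 CPM in control and 7.74, 2.42, 0.00 and 5.74 CPM in siG9a, from 0 to 17 reads. The 0 reads in siG9a replicate 3 are under the floor of 3 reads, 1.71 CPM there, and their 95% interval reaches 2.19 CPM. The groups overlapped and the log2 change was −0.26 with a 95% interval of −1.81 to 1.29 without the block and −1.10 to 0.58 with it (limma adjusted p = 0.927 and 0.751). Its sign turned to 0.11 without control replicate 4 and to 0.38 without siG9a replicate 3.

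On the cytoplasmic side, DTNA encodes α-dystrobrevin, which binds dystrophin and the syntrophins, and SNTB1 encodes β1-syntrophin, an adaptor for signalling proteins. DTNA (ENSG00000134769, chr18:34493290-34891844) measured 59.6, 53.5, 34.4 and 48.8 CPM in control and 25.8, 27.8, 36.5 and 36.7 CPM in siG9a. Outside replicate 3 the siG9a libraries, 25.8 to 36.7 CPM, lay below the control libraries, 48.8 to 59.6 CPM, while the pair of replicate 3 was at 106% of control. The means were 49.1 ± 10.7 and 31.7 ± 5.72 CPM (mean ± SD, n = 4 in both), and the two-sided exact permutation p was 0.0857. By pairs, the exact sign-flip p was 0.25. The log2 change was −0.60 ± 0.25 (SE) and limma's adjusted p was 0.355 unblocked and 0.0693 blocked. Without replicate 3 of both groups it was −0.83, and limma's adjusted p was 0.0942 unblocked and 0.0405 blocked, so the call rests on leaving out that pair, where 7.14% of all genes were called with the block.

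SNTB1 (ENSG00000172164) measured 6.17, 1.82, 2.46 and 6.23 CPM in control and 2.06, 1.82, 1.71 and 5.16 CPM in siG9a, from 3 to 12 reads. The groups overlapped and the log2 change was −0.45 with a 95% interval of −1.47 to 0.56 (limma adjusted p = 0.747 without the block and 0.538 with it). Without replicate 1 of both groups it was −0.19. MTBP, at a mean of 10.04 CPM, overlaps 4 annotated exons of SNTB1 on the other strand, and the sources used here do not say if strand was used in counting, so these few reads are uncertain. SGCA and DTNA also overlap antisense genes, which held means of 0.293 and 0.0863 CPM.

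DMD, SGCA and SGCD differed more between replicate 3 and the other numbers than between the groups. The replicate 3 library was the lowest of its group in both groups for 4 of the 8 (DMD, SGCA, SGCB and SGCD), where this held for 19.8% of all genes tested. It was at 50% or less of the mean of the other 3 libraries in both groups for DMD, SGCA and SGCD, where this held for 11.4% of all genes. DMD in replicate 3 was at 19.8% of the other libraries in control and at 19.2% in siG9a, and SGCA at 21.4% and 29.1%. MYOD1 was at 11.3% and 16.9%. UTRN went the other way, at 119% and 128%, and DTNA was at 63.8% in control and 121% in siG9a. The changes given above are small beside these shifts for DMD and SGCA, and without replicate 3 of both groups they were 0.18 and −0.02 on the log2 scale.

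**Figure D3:**
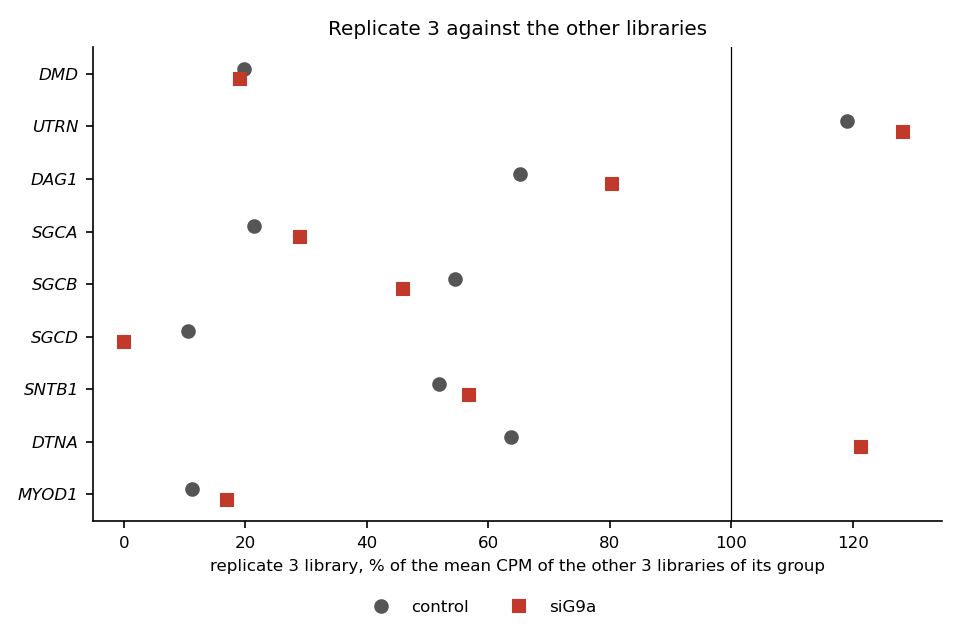
The replicate 3 library as a percentage of the mean CPM of the other 3 libraries of its group (x axis) for the 8 genes and MYOD1, in control (grey circles) and siG9a (red squares), with a line at 100%. DMD, SGCA, SGCD and MYOD1 lie below 30% in both groups and UTRN lies above 100% in both.

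The genes whose profile was most like that of a member were found by the root mean square difference of log2(CPM + 1) over the 8 libraries, each gene centred on its own mean, among 15091 genes, for the 3 members that varied most. For SGCD these were EVC2 (0.13), DNAJC15 (0.25) and TP73 (0.26). For DMD they were NOL5BP (0.16), MYOF (0.18) and TBX15 (0.18), and for SGCA they were PPP1R18 (0.14), SMARCD3 (0.17) and TNNT1 (0.18). All 9 were lowest in the replicate 3 library of each group, where this held for 19.8% of all genes tested. The choice favours this, as DMD, SGCA and SGCD were themselves lowest there. MYOF and DNAJC15 had means of 2.07 and 3.27 CPM over the 8 libraries and were at 0 in siG9a replicate 3. Their matches therefore rest on few reads.

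The remaining subunits of the complex were examined with the 8 genes in a list of 20. That list also holds NOS1 and CAV3, which are associated proteins and not core subunits. Of the 20 genes, 15 passed the filter, and limma called 0 without the block. With the block it called 2 lower, CAV3 and NOS1, and 0 higher, where 6.52% of all genes were called lower and 4.86% higher, and the median log2 change was −0.53. NOS1, neuronal nitric oxide synthase, docks on the complex through syntrophin. It measured 325, 338, 111 and 334 CPM in control and 93.9, 152, 103 and 142 CPM in siG9a. It was lower in 4 of 4 pairs, but replicate 3 was at 92.3% of control where the other pairs were at 28.9% to 44.9%. Its log2 change was −1.07 ± 0.19 (SE of the blocked fit, here and for the partners below, where that of the unblocked fit was used for the 8 genes) and limma's adjusted p was 0.000451 blocked and 0.238 unblocked. CAV3, the muscle caveolin, measured 73.4, 62.6, 13.5 and 87.8 CPM in control and 20.6, 9.68, 8.56 and 29.3 CPM in siG9a, lower in 4 of 4 pairs. For CAV3 the log2 change was −1.63 ± 0.26 (SE) and limma's adjusted p was 0.000150 blocked and 0.263 unblocked. Unblocked, limma also called both without replicate 3 of both groups, where 2.74% of all genes were called, and without control replicate 3 alone, where 1.99% were.

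DTNB, which encodes β-dystrobrevin, was at 14.3 ± 5.92 CPM in control and 6.53 ± 4.24 CPM in siG9a (mean ± SD, n = 4 in both), lower in 4 of 4 pairs, and limma's adjusted p was 0.356 unblocked and 0.05002 blocked, the latter just above the threshold. edgeR with the block gave 0.0451 for it and DESeq2 with the block 0.155. SNTB2, which encodes β2-syntrophin, had a log2 change of −0.21, and limma's adjusted p was 0.660 blocked. SSPN, which encodes sarcospan, was at 0 in replicate 3 of both groups and at 5.80 and 2.68 CPM on average. Among the 5 genes under the filter were DRP2 and SNTG1, and SGCZ and SNTG2, which were listed at 0 in every library.

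**Figure D4:**
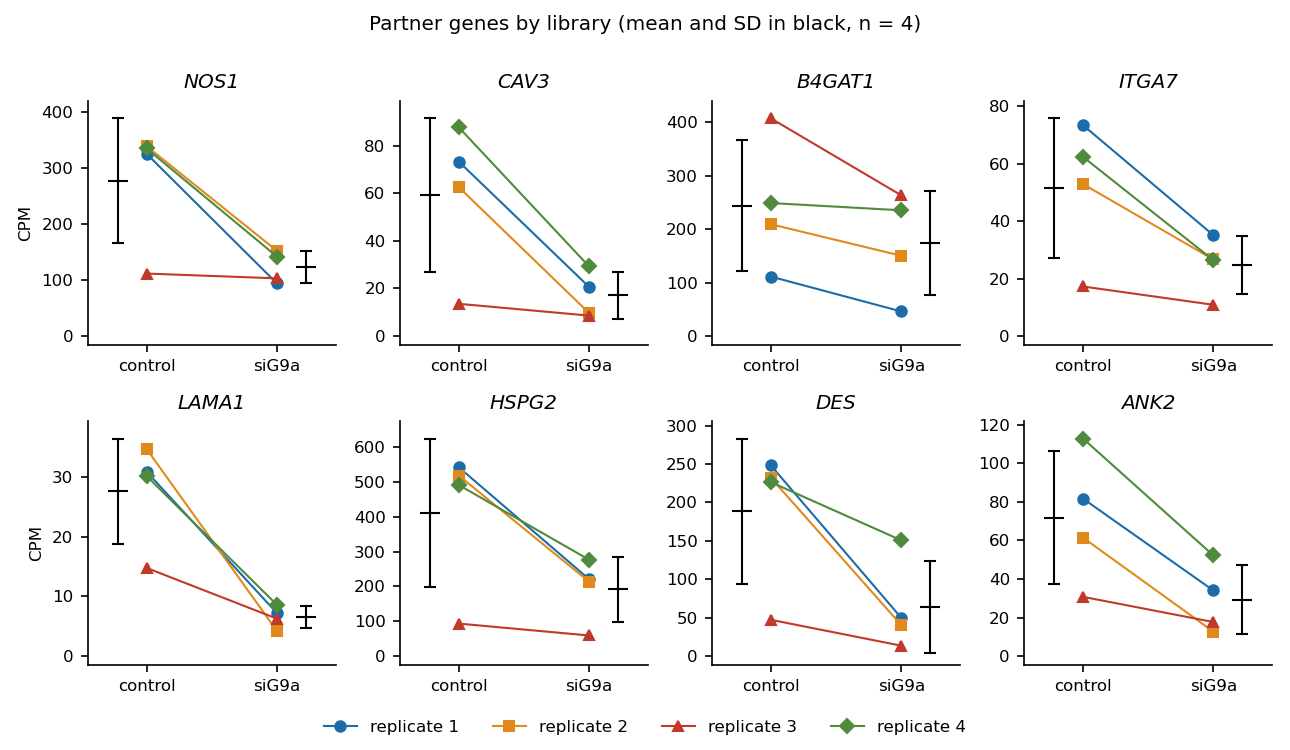
Level of 8 partner genes of the complex (y axis, CPM) in control and siG9a libraries, with lines joining libraries of the same replicate number and the group mean ± SD (n = 4) in black. All 8 were lower in siG9a in 4 of 4 pairs, and for LAMA1 the 4 siG9a values lie below the 4 control values. Over all genes tested these shares were 15.3% and 3.45%. The genes were picked by the smallest unadjusted p with the block, which favours such pairs. Picked the same way but not shown, DTNB was lower in 4 of 4 pairs and COL6A2 in 3 of 4.

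The enzymes that build the laminin-binding sugar chains of α-dystroglycan were a list of 18, of which 16 passed the filter. Limma called 0 without the block and 4 with it, 3 lower, B4GAT1 among them, and 1 higher (DPM3), where 6.52% and 4.86% of all genes were, and the median log2 change was −0.03. B4GAT1, a glucuronyltransferase that acts on the growing chain, measured 111, 209, 407 and 249 CPM in control and 45.9, 150, 263 and 235 CPM in siG9a. It was lower in 4 of 4 pairs with wide overlap, and limma's adjusted p was 0.0167 blocked and 0.680 unblocked, and 0.0517 in DESeq2 with the block. DPM3, a subunit of dolichol-phosphate-mannose synthase, was at 30.3 CPM in control and 47.2 CPM in siG9a, and limma's adjusted p was 0.0446 blocked and 0.389 unblocked. It is named here after its values were seen. POMT1 and POMT2, which start the chain, had log2 changes of 0.19 and −0.02 and were not called in either fit.

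Among 15 extracellular ligands and matrix partners, 12 passed the filter. Limma called 0 without the block and 2 with it, LAMA1 and HSPG2, both lower, where 6.52% of all genes were called lower, and the median log2 change was −0.74. LAMA1, the laminin α1 chain, measured 30.9, 34.6, 14.8 and 30.1 CPM in control and 7.22, 4.24, 6.28 and 8.6 CPM in siG9a, without overlap. For LAMA1 the log2 change was −1.88 ± 0.30 (SE) and limma's adjusted p was 0.000178 blocked and 0.0898 unblocked. HSPG2, which encodes perlecan, a ligand of dystroglycan in basement membranes, measured 542, 518, 93.5 and 491 CPM in control and 221, 214, 59.4 and 276 CPM in siG9a. The replicate 3 libraries were lowest in both groups, and the limma adjusted p was 7.5e-05 blocked and 0.511 unblocked. COL6A2, a collagen VI chain, was at 28.0 ± 17.0 and 11.7 ± 4.54 CPM (mean ± SD, n = 4 in both), and limma's adjusted p was 0.0518 with the block. LAMA2, the laminin chain of adult muscle, did not pass the filter, with means of 0.915 and 0.295 CPM.

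Of 18 cytoskeletal and membrane partners 17 passed the filter, and limma called 0 without the block and 5 with it, where 11.4% of all genes were called. DES, ANK2, ITGA7 and ANK3 were lower and ACTG1 was higher, and the median log2 change was −0.14. DES, which encodes the muscle intermediate filament desmin, measured 248, 232, 47.4 and 226 CPM in control and 50.03, 40.6, 13.7 and 151 CPM in siG9a, lower in 4 of 4 pairs. Its log2 change was −1.77 ± 0.22 (SE) and limma's adjusted p was 6.7e-06 blocked and 0.300 unblocked. ANK2, an ankyrin that places dystrophin and dystroglycan at the membrane, was at 71.6 ± 34.4 and 29.2 ± 17.9 CPM (mean ± SD, n = 4 in both), and limma's adjusted p was 0.000249 blocked and 0.273 unblocked. ITGA7, the laminin-binding integrin of muscle, was at 51.4 ± 24.3 and 24.7 ± 10.1 CPM (mean ± SD, n = 4 in both), and limma's adjusted p was 0.00315 blocked and 0.414 unblocked. BLOC1S1, at a mean of 55.6 CPM, overlaps 2 exons of ITGA7 on the other strand, so ITGA7 is uncertain in that respect. ANK3 and ACTG1, named after their values were seen, had log2 changes of −1.12 and 0.60.

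**Figure D5:**
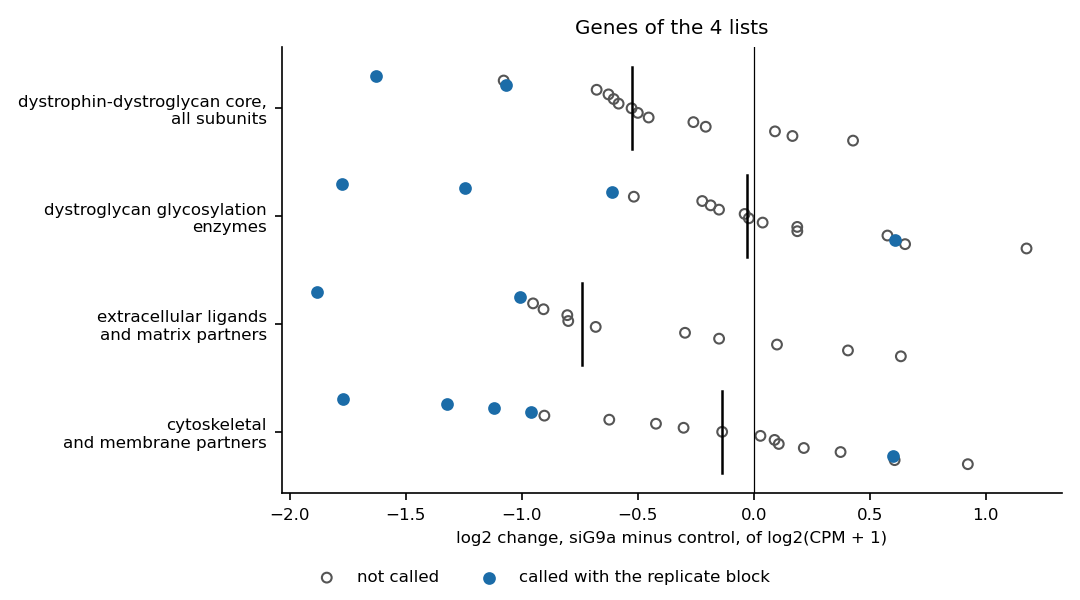
Log2 change of each tested gene (x axis, siG9a minus control, on the log2(CPM + 1) scale) in the 4 lists, with genes called by limma with the replicate block filled in blue and a black bar at each list's median. The called genes number 2, 4, 2 and 5 from top to bottom, none is among the 8 genes described above, and limma called no gene of these lists without the block.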

How the data were processed

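Expression was measured with QuantSeq 3′ mRNA libraries from 100 ng of total RNA and single-end reads of 75 bases, per the labels' protocols. The deposited table holds CPM to 2 decimals, counts per gene that the authors scaled to the same total in each library. The submitters' processing notes name FastQC 0.11.8, Trim Galore, STAR 2.5.0a, HTSeq 0.8.0 and edgeR 3.28, and the builds GRCh38 and hg19, without roles, so which build was used for counting is not given in the sources used here. Gene positions are those of GENCODE release 29 (GRCh38), which holds 86.9% of the table's identifiers and all 8 members. In each library 100% of the non-zero values were whole multiples of 1 read within 0.0051 CPM, and 0 columns of other samples were present. No 2 libraries of a group agreed within sampling noise (chi-square per degree of freedom 6.67 to 33.0). Intervals and floors cover counting error only.

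The main test was limma 3.58.1 in R 4.3.3 (lmFit, eBayes with trend, two-sided) on log2(CPM + 1), for genes whose mean over the 8 libraries reached 1 CPM, with Benjamini-Hochberg adjustment over all 15092 and a threshold of 0.05. The pseudocount of 1 understates the change of low genes. Libraries were paired by the number at the end of their titles, and no label says what a number stands for. Deviations from the group means of same-numbered libraries had correlations across genes of 0.50, 0.104, 0.67 and 0.13, all above 0.1, so a fit with the replicate number as a block is given beside the main one. Control replicate 2 with siG9a replicate 4 had 0.144, above the same-number values of replicates 2 and 4, so only numbers 1 and 3 stand clear of the other pairings. If replicates did not come from separate cultures, p-values measure only the spread between these libraries. edgeR 4.0.16 (quasi-likelihood, TMM) and DESeq2 1.42.0 were run on the recovered reads. The limma fit was tested on simulated reads, with and without the block. Their means were set by replicate number, so they cannot check the pairing.

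The 8 genes and the lists were chosen with earlier results of these data known. Named beside the 8 genes were EHMT2, MYOD1 and, in each list, any gene called without the block and at most 3 with the smallest unadjusted p with it. Some of these genes are not reported here. Alternatives were other pseudocounts, filters, scaling, moderation, tools, the block, and leaving out each library or pair.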

Additional observations from a re-analysis of the deposited data

Results flagged for a closer look

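For the 8 genes and the other named genes, Dixon's ratio set the extreme library at each end of a group of 4 against its nearest neighbour. Among 44 groups the ratio passed the 95% limit in 8, and 7 of these were a replicate 3 library. By chance 1 in 20 groups would pass, or 2.2 here. The groups come from the same 8 libraries and are not independent. A single unlike library can move many of them, so the flags are not separate events.

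SGCA was low at 81.8 CPM in control replicate 3 (others 363 to 415 CPM) and at 110 CPM in siG9a replicate 3 (others 357 to 397 CPM). UTRN was high in siG9a replicate 3, at 77.7 CPM (others 60.2 to 60.9 CPM). SNTB1 was high in siG9a replicate 4, at 5.16 CPM from 9 reads (others 1.71 to 2.06 CPM). In control replicate 3, MYOD1 was at 95.3 CPM (others 817 to 864 CPM), NOS1 at 111 CPM (others 325 to 338 CPM), HSPG2 at 93.5 CPM (others 491 to 542 CPM) and DES at 47.4 CPM (others 226 to 248 CPM).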

How the results depend on the processing

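With the replicate block limma called 1717 genes in place of 0, edgeR 1709 and DESeq2 936. Without the block DESeq2 called 292, limma with no filter 18, and edgeR 0. Leaving out libraries gave 0 to 1393 calls, among them 300 without control replicate 3, 2 without siG9a replicate 4, and 413 without replicate 3 of both groups (with the block 951, 668, 1078 and 1393 without replicates 1 to 4). The members called numbered 1 (UTRN) in edgeR with the block, and 0 to 1 when libraries were left out, the calls being DTNA without replicate 3 and SGCB without replicate 4, both with the block. In limma with all libraries the block changed no member's call.

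The members' median log2 change ran from −0.66 (without control replicate 3) to −0.31 (without control replicate 1). Reversed signs were DMD (range −0.37 to 0.71) at −0.37 without control replicate 3 and −0.16 without siG9a replicate 1, and SGCD (range −0.82 to 0.38, and −0.76 to 0.38 when libraries were left out) at 0.11 without control replicate 4 and 0.38 without siG9a replicate 3. SGCA (up to 0.53) was −0.46 without control replicate 3, −0.017 without replicate 3 of both groups with or without the replicate block, and −0.08, −0.06 and −0.03 without siG9a replicates 2, 1 and 4. MYOD1 ran from −0.81 to 0.61, with 0.11 without replicate 2 of both groups, blocked or not. UTRN, DAG1, SGCB and DTNA stayed negative in all 28 settings and SNTB1 in the 27 that tested it.

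Of the lists, with the block in limma, edgeR and DESeq2, the core counted 2, 4 and 2 calls, the glycosylation enzymes 4, 4 and 2, the matrix partners 2, 4 and 2, and the cytoskeletal partners 5, 6 and 5. DESeq2 without the block called 2, 2, 1 and 0. Without libraries the counts were 0 to 3, 0 to 3, 0 to 3 and 0 to 6. The causes of these differences were not tested. SGCD and SNTB1 rested on 0 to 17 reads, which limits both.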
